A study of Mus musculus with 4 samples.

Results

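The 9 genes described here are Pbsn, Msmb, Azgp1, Fkbp5, Hoxb13, Tmprss2, Mme, Mboat2 and Steap4, taken as a set of androgen receptor target genes. Whether the receptor drives these genes was not tested. They were chosen by symbol, by a rule that uses no measured value but was set with earlier results of these data known, and are 9 of the 17896 genes listed in tables of single-cell RNA sequencing from mouse ventral prostate. The compared mice were of strain C57BL6j and genotype wt, 2 of them labelled sham and 2 labelled te2, and each library came from both ventral lobes of 1 animal. Per the series text, hormone pellets had been implanted and the lobes were taken 2 weeks later. The code te2, the hormone in the pellets and the age of the mice are not given in the sources used here. Each transcript was counted by its unique molecular identifier (UMI) at its 3′ end.

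The androgen receptor is a hormone-activated transcription factor of the nuclear receptor family. It is held by chaperones until it binds testosterone or dihydrotestosterone, and then binds DNA elements built from pairs of short half-sites. In the ventral prostate it maintains the luminal cells, which line the ducts and secrete the prostatic fluid, and many of its targets are also reached by the glucocorticoid receptor. The genes fall into secreted proteins (Pbsn, Msmb, Azgp1), a co-chaperone and a homeobox factor of the receptor's own circuit (Fkbp5, Hoxb13), and membrane enzymes (Tmprss2, Mme, Mboat2, Steap4).

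Promoters from RefSeq on build GRCm38.p6 were found for 7 of the 9 genes, as 9 windows that run from 250 bases before to 50 bases after a start site. They were searched on both strands for the 6-letter half-site AGAACA, which reads TGTTCT on the other strand, and for the palindrome made of AGAACA, any 3 bases and TGTTCT. The half-site was present in 2 of the 9 windows, those of Pbsn and Azgp1, and in 19.0% of the 32851 promoter windows of all genes. The palindrome was in none of the 9 windows and in 3 of the 32851. The sequences below are the 250 bases before the start site of the classical prostate promoter, that of Pbsn, and of the co-chaperone Fkbp5 and the protease Tmprss2, whose levels were higher in te2 in both luminal and proximal cells (below). A short stretch of Azgp1 that holds its half-site follows. Capitals mark the half-site.
Pbsn, chrX:77853501-77853750, minus strand: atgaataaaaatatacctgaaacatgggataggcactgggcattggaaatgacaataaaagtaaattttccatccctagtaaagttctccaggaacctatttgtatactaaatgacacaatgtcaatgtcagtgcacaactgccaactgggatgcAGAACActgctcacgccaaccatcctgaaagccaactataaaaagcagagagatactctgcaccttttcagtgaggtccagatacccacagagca
Fkbp5, chr17:28486150-28486399, minus strand: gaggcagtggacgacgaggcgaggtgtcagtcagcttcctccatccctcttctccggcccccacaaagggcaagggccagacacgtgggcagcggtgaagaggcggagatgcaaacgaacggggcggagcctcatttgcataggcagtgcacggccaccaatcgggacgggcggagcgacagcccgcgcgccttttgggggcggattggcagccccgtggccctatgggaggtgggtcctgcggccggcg
Tmprss2, chr16:97611196-97611445, minus strand: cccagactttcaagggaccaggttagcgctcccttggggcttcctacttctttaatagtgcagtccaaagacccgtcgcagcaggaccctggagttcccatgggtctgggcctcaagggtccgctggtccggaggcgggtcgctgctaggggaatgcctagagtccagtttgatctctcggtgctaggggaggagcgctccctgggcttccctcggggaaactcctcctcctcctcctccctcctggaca
Azgp1, chr5:137981525-137981550, plus strand: ctgtgtagacTGTTCTcccgggcact
The half-site of Pbsn began at base -95 from the start site, and that of Azgp1 at base 15 after it. No factor's binding was measured in these libraries, and a match of letters is not a bound site.

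The 4 tables held 11245 cells, of which 8091 had at least 500 UMIs and at most 20% mitochondrial counts. The sham tables summed to 3999690 and 5513275 UMIs and those of te2 to 12259610 and 13134017. The median per kept cell was 1203.5 and 1722 UMIs in the former and 3426.5 and 4075 in the latter. Cells were classed in order by the share of their UMIs from a few genes. A cell was luminal with at least 10% from Sbp and Spink1, then basal with at least 0.2% from Krt5, Krt14 and Krt15. Next it was a fibroblast with at least 0.3% from Col1a2, Col3a1 and Dcn, a macrophage with at least 0.3% from C1qa, C1qb and C1qc, or proximal with at least 0.1% from Krt4, Wfdc2 and Cxcl17. The 1434 cells outside these classes (17.7%) are called unclassed. These classes are ranges of a share, and 2.89% to 8.63% of the cells of a class lay within 20% of its minimum. Markers that the rule did not use bore out the names of basal, fibroblast and macrophage cells in all 4 libraries. The 5 unused proximal markers were higher in proximal than in the other 4 classes of each library, though less distinct in te2. They summed to 2746 and 2080 CPM in sham against at most 221 and 540 in any of these, and to 2332 and 3174 CPM in te2 against 1793 and 1882 in luminal cells. The luminal name was not set apart from proximal cells by the 6 unused luminal markers, which summed to 2656, 2987, 4717 and 5054 CPM (counts scaled to a total of 1000000) in luminal and 3097, 2789, 5188 and 5777 in proximal cells, with the 2 sham libraries first.

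The class sizes differed between the groups. Luminal cells were 64.5% and 64.1% of the kept cells in sham and 16.9% and 23.0% in te2. Proximal cells numbered 35 and 169 in sham and 636 and 376 in te2, and basal cells 44 and 160 against 591 and 573. Median depth also moved with the group in every class: sham luminal cells had a median of 1551 and 2455 UMIs, those of te2 one of 8265.5 and 10359. Proximal markers moved with it inside the luminal class. The 8 of that list summed to 154 and 108 CPM in sham luminal cells, with Psca at 0 and the other 7 detected, and to 2035 and 2065 CPM in te2 luminal cells with all 8 detected. The part of depth and of this marker level in the results below was not tested. Of the cell barcodes, 15 occurred in more than 1 library.

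Levels within a class are given as CPM of the summed counts of the class, scaled by TMM factors, for sham replicates 1 and 2 and then te2 replicates 1 and 2. Changes are log2 differences of te2 minus sham with their standard error (SE), from the quasi-likelihood test of edgeR with 2 libraries against 2 and Benjamini-Hochberg adjustment over all genes tested. A change was called at an adjusted p of at most 0.05. In luminal cells all 9 genes were tested, 5 were called higher in te2 and 2 lower. Of all 10976 genes tested there, 18.0% were called higher and 14.0% lower, 32.0% in all. The median log2 change of the 9 was 0.70, and that of all genes tested was -0.01. This median of the 9 is the value of Pbsn, which was not called and reversed its sign in 3 of 15 alternatives. Mboat2 and Steap4 passed the filter on low counts through their te2 libraries, so their calls are not independent of the filter. Both are among the 5 called higher.

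**Figure D1:**
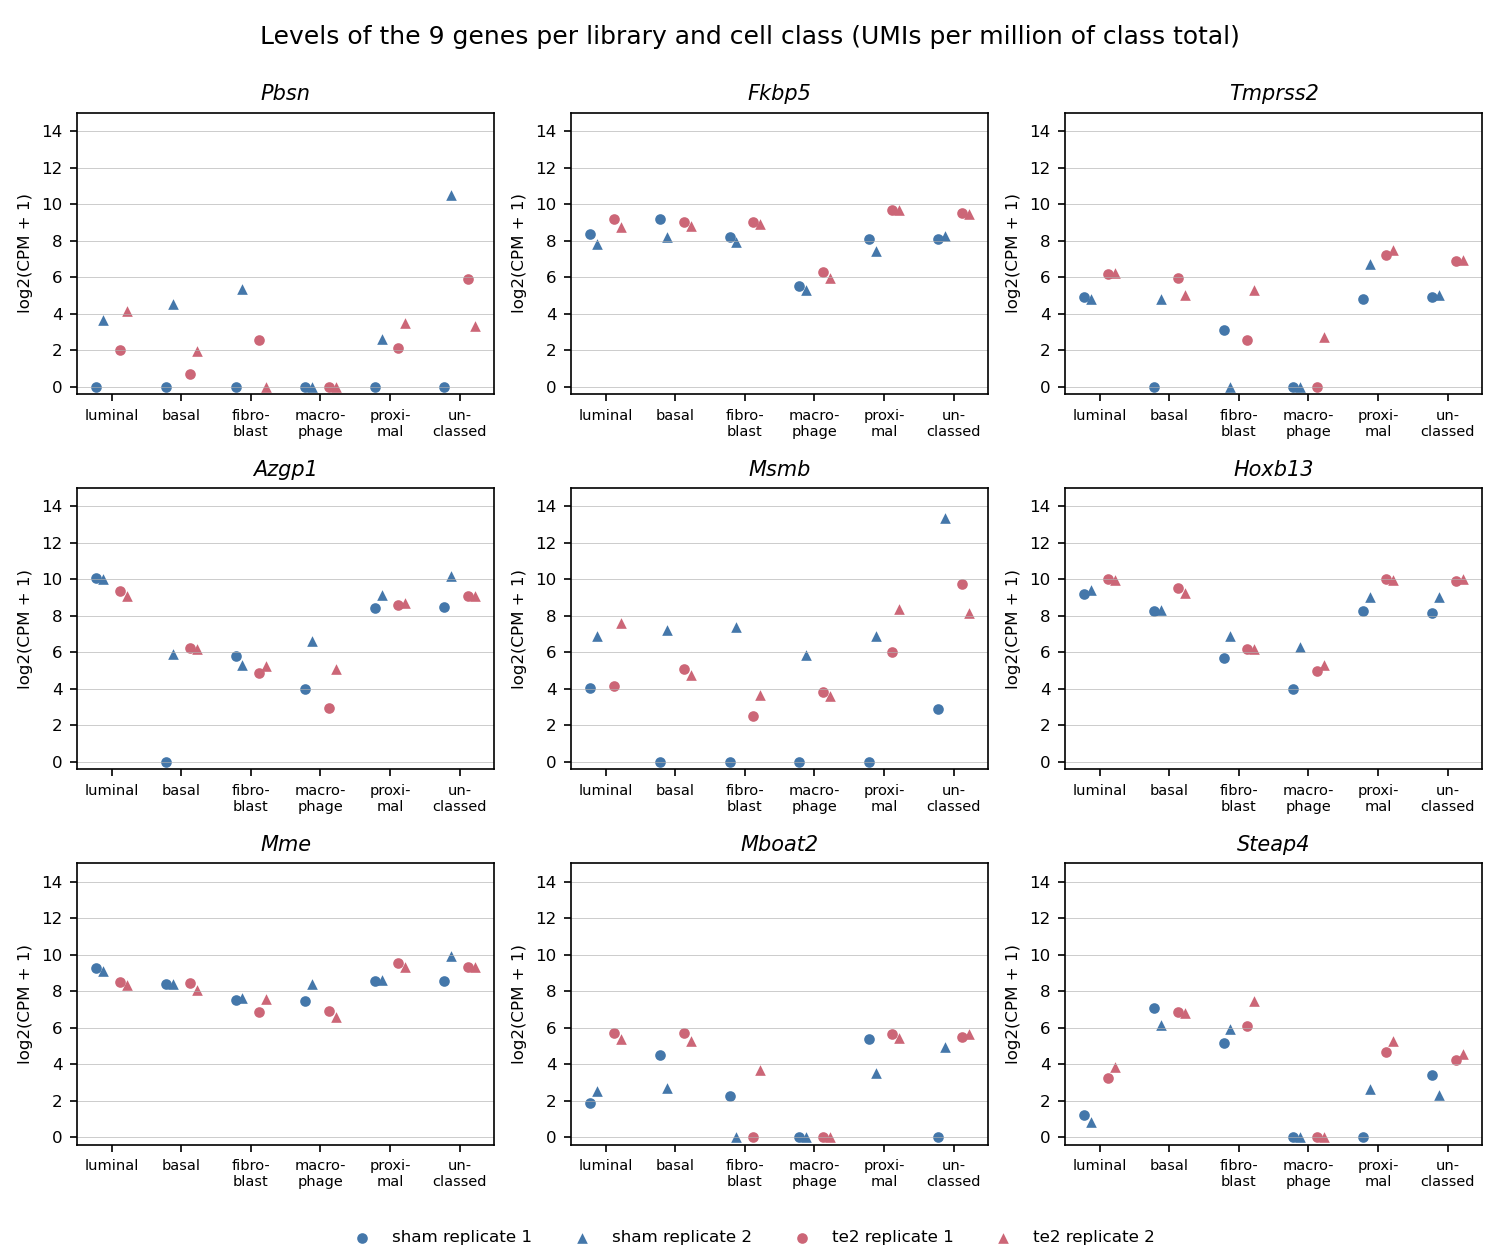
Level of each of the 9 genes in the 5 classes and the unclassed cells, as log2(CPM + 1) by class totals; each point is 1 library, with sham and te2 in different colours. The luminal points of the groups overlap for Pbsn and Msmb.

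Azgp1, a secreted zinc-binding glycoprotein of the MHC class I fold, was lower in te2 luminal cells. Its level was 1103 and 1038 CPM in sham and 631 and 546 CPM in te2. Both te2 libraries lay below both sham libraries, a log2 change of -0.86 ± 0.13 (SE) with an edgeR adjusted p of 0.000266. After each cell was thinned to 1000 UMIs, the share of luminal cells with an Azgp1 UMI was 61.4% and 61.4% in sham and 46.5% and 37.6% in te2. Before thinning these shares were 61.7%, 76.0%, 90.3% and 88.9%, with te2 above sham. Thinning used 651 and 1012 luminal cells of sham and 370 and 460 of te2, and left out 406, 280, 22 and 25 shallower ones. The unthinned order goes against the CPM, and no order is read from it.

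Mme, the membrane metalloendopeptidase neprilysin, which cleaves peptides outside the cell, was the other gene that fell in luminal cells. It stood at 642 and 563 CPM in sham and at 342 and 322 CPM in te2. The groups did not overlap, and the log2 change was -0.86 ± 0.13 (SE; edgeR adjusted p = 0.000212). The thinned share of cells with a UMI was 43.5% and 40.9% in sham against 29.7% and 27.0% in te2.

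Fkbp5, a co-chaperone that binds the receptor's chaperone complex, was higher in te2 luminal cells. Levels were 335 and 223 CPM in sham and 562 and 435 CPM in te2. The 2 groups lay apart, with sham replicate 1 closest to te2, and the log2 change was 0.84 ± 0.18 (SE; edgeR adjusted p = 0.00283). This call was lost with DESeq2, which gave 0.87 and an adjusted p of 0.0536.

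Hoxb13, a homeobox factor of the prostate that acts with the receptor on DNA, had 616 and 675 CPM in sham and 980 and 998 CPM in te2. The replicates of each group were close to each other and the groups did not overlap. The log2 change was 0.62 ± 0.13 (SE; edgeR adjusted p = 0.00237).

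Tmprss2, a serine protease of the cell membrane, was at 29.5 and 26.8 CPM in sham and 67.1 and 73.3 CPM in te2. It rose by 1.32 ± 0.15 (SE) on the log2 scale, with an edgeR adjusted p of 2.24e-05. Mboat2, an acyltransferase of membrane phospholipids, was scarce in sham. It had 2.78 and 4.74 CPM there and 50.3 and 40.4 CPM in te2, from 26 and 374 counts. Its log2 change of 3.53 ± 0.26 (SE; edgeR adjusted p = 4.88e-07) was the largest of the 9 in luminal cells. The ratio of the summed counts by class totals was 11.8, with an exact 95% interval of 7.94 to 18.3 that covers counting error only. Steap4, a metalloreductase of endosomal and plasma membranes, had 1.39 and 0.79 CPM in sham and 8.10 and 13.1 CPM in te2. That is 7 counts against 93, a log2 change of 3.33 ± 0.48 (SE; edgeR adjusted p = 0.000156). Both te2 libraries stood above both sham libraries for Tmprss2, Mboat2 and Steap4. The share of all genes that separate in this way is not given here.

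Pbsn, which encodes probasin, a secreted lipocalin whose promoter is widely used to drive transgenes in prostate epithelium, did not separate the groups. It was at 0 and 11.8 CPM in sham and 2.89 and 17.0 CPM in te2, and it is not listed in the table of sham replicate 1. The log2 change was 0.70 ± 0.77 (SE; edgeR adjusted p = 0.521). Msmb, the secreted microseminoprotein beta, showed the same order of libraries. It had 16.3 and 118 CPM in sham and 16.5 and 196 CPM in te2, and replicate 2 of each group was the high one. Its log2 change of 0.65 ± 0.74 (SE; edgeR adjusted p = 0.541) turned with the library left out. Leaving out te2 replicate 2 gave -2.07 and sham replicate 1 gave -0.10, while leaving out te2 replicate 1 gave 1.53 and sham replicate 2 gave 2.75.

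**Figure D2:**
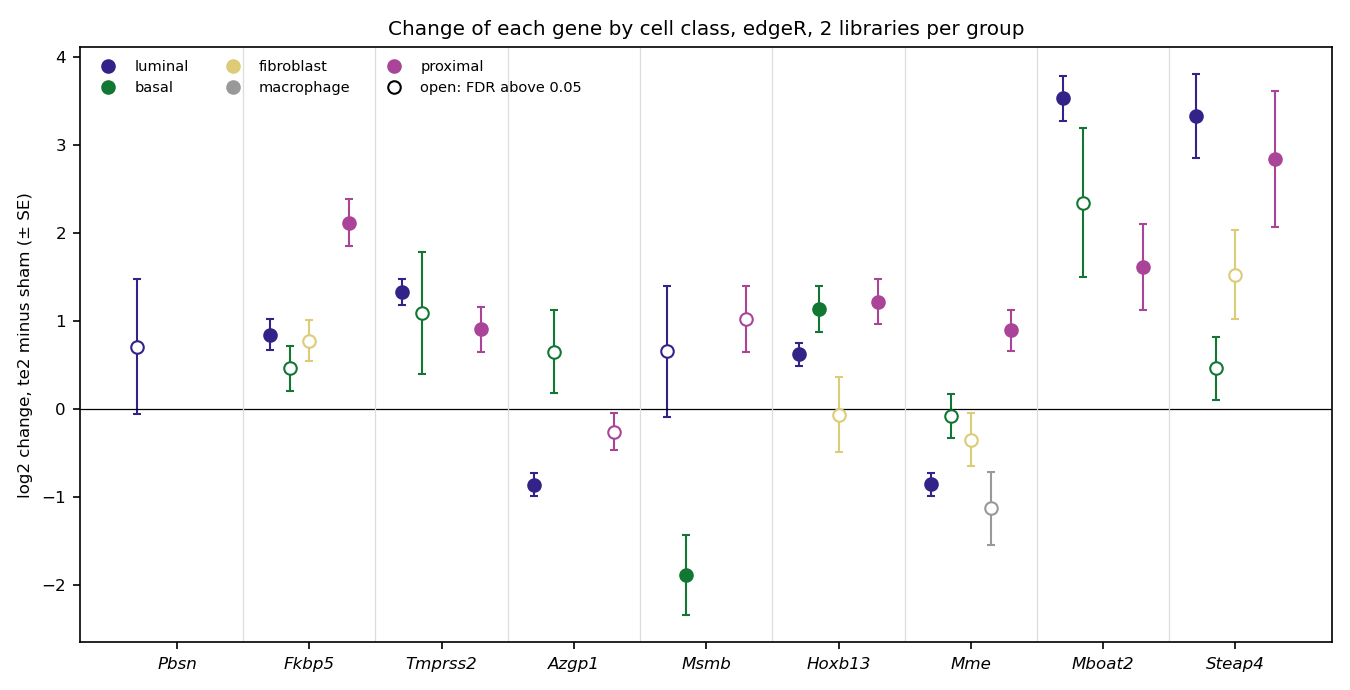
Log2 change of te2 minus sham for the 9 genes in each class where they were tested, with bars of 1 SE from edgeR; filled points passed an adjusted p of 0.05. Luminal cells have 7 filled points, of which Azgp1 and Mme lie below 0, and proximal cells have 6, all above 0.

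Msmb and Pbsn UMIs came from few cells. A cell was counted as rich in Msmb with at least 10 Msmb UMIs, a limit chosen after the values were seen. Sham replicate 1 had 1 such cell, sham replicate 2 had 43, and the te2 replicates had 27 and 31. They held 69.4%, 93.8%, 83.2% and 83.7% of all Msmb UMIs of the kept cells of their library. In the 3 libraries with Pbsn UMIs the same cells held 89.7%, 76.6% and 62.0% of those. Pbsn was seen in 26 of 43, 17 of 27 and 9 of 31 of them. In the remaining 1974, 2297 and 2081 cells of these libraries it was seen in 68, 26 and 29. The level of Msmb in the rich cells was 30061, 10804 and 6154 CPM by totals, and in all other cells of the same libraries 75.3, 35.3 and 35.9 CPM.

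Most of these cells fell outside the luminal class. Of the 43 in sham replicate 2, 10 were luminal, 1 proximal and 32 unclassed. In te2 replicate 1 the numbers were 1 luminal, 5 proximal and 21 unclassed, and in te2 replicate 2 they were 8, 7 and 16. The median share of Sbp and Spink1 in them was 4.35%, 0.223% and 2.22%, below the 10% that defines the luminal class. Their Mme level was 1839, 962 and 918 CPM by totals, where luminal cells of the same libraries had 559, 356 and 322 CPM. Their Azgp1 level was 1823, 845 and 739 CPM against 1030, 656 and 546. Unclassed cells, which include most of them, had Mme at 371 to 972 CPM in sham and 631 to 649 CPM in te2. Azgp1 in unclassed cells of the same libraries was at 1149, 544 and 546 CPM. The 1 rich cell of sham replicate 1, with 825 UMIs, had 0 CPM of both genes. Hoxb13 was at 551, 666 and 1015 CPM in the rich cells of the other libraries and at 670, 1019 and 999 CPM in their luminal cells. These cells were picked by their Msmb, so the values are a description. Of 8 genes that mark the other sex glands, the tables list 3 (Svs4, Svs5 and Tgm4), so that the other 5 could not be read. Of the 3 listed, no more than 2 were detected in any class of any library, at no more than 14.8 CPM. In the unclassed cells as a whole the list summed to at most 6.39 CPM. The list was summed over whole classes and not in the Msmb-rich cells alone, and the origin of those cells was not tested.

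Proximal cells are named for the ductal epithelium close to the urethra, but the class is set by a marker share and position was not measured. In this class 8 of the 9 genes were tested, 6 were called higher in te2 and 0 lower. Of all 10068 genes tested, 5.54% were called higher and 4.78% lower, 10.3% in all. The median log2 change of the 8 was 1.12, against 0.06 for all genes tested. Steap4, among the 6 called higher, passed the filter through its te2 libraries, so its call is not independent of the filter. The 2 sham sums rest on 73935 and 389414 UMIs and the te2 sums on 4096314 and 2743435. The count of 6 was 3 with DESeq2, 2 with all sums thinned to equal totals, and 2 without te2 replicate 2.

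Fkbp5 had the change of smallest p. It stood at 236 and 184 CPM in sham and at 872 and 849 CPM in te2, so that the replicates of each group were close and the groups far apart. The log2 change was 2.12 ± 0.26 (SE; edgeR adjusted p = 4.81e-10), and the call held in all 15 alternative analyses. Thinned to 1000 UMIs, 28.0% and 15.5% of the proximal sham cells and 52.5% and 55.8% of the te2 cells had an Fkbp5 UMI.

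Hoxb13 was at 272 and 548 CPM in sham and 1098 and 1016 CPM in te2. It rose by 1.22 ± 0.25 (SE) on the log2 scale, with an edgeR adjusted p of 0.000238. Mme, which was lower in te2 luminal cells, was higher in te2 proximal cells, with 331 and 407 CPM in sham and 772 and 649 CPM in te2. Its log2 change was 0.89 ± 0.23 (SE; edgeR adjusted p = 0.00482). The groups of Hoxb13 and Mme did not overlap, and the sham replicates of Hoxb13 lay farther apart than its te2 replicates. The share of all genes without overlap is not given here. The Mme call was lost under 4 of 15 alternatives. Among them were thinned sums and the fits without te2 replicate 1 (0.77) or te2 replicate 2 (1.02). The Hoxb13 call was lost when te2 replicate 1 was left out (1.20).

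Tmprss2 was at 23.6 and 108 CPM in sham and 154 and 185 CPM in te2, a log2 change of 0.90 ± 0.26 (SE; edgeR adjusted p = 0.0109). Mboat2 was at 35.5 and 10.8 CPM and at 51.6 and 43.4 CPM, a log2 change of 1.61 ± 0.49 (SE; edgeR adjusted p = 0.0186) that rests on 7 sham counts. Steap4 rested on 2 sham and 205 te2 counts, or 0 and 5.42 CPM against 25.8 and 39.3 CPM. The ratio of its summed counts was 6.94 with an exact 95% interval of 1.90 to 57.7, and its edgeR adjusted p was 0.00739. For Tmprss2, Mboat2 and Steap4 both te2 libraries lay above both sham libraries, for which the share of all genes is also not given. Relative to their level, none of them had sham replicates as close as those of Fkbp5. The Tmprss2 call was lost under 6 of 15 alternatives. Among them were the fits without sham replicate 1 (0.66), te2 replicate 1 (1.09) or te2 replicate 2 (0.81). The Mboat2 call was lost under 6 of 14 alternatives, which include the fits without sham replicate 2 (0.48), te2 replicate 1 (1.42) or te2 replicate 2 (1.69). The Steap4 call was lost when either sham library was left out.

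The other members were not called in proximal cells. Azgp1 had 296 and 594 CPM in sham and 405 and 422 CPM in te2, so that both te2 libraries lay between the sham libraries (log2 change -0.26 ± 0.21 SE, edgeR adjusted p = 0.502). Msmb had 0 and 125 CPM in sham and 67.3 and 337 CPM in te2, with overlap of the groups (log2 change 1.02 ± 0.38 SE, edgeR adjusted p = 0.0663). Pbsn was below the filter, with 2 sham and 42 te2 counts.

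The change of 3 genes differed between proximal and luminal cells when the difference itself was tested with the library as a block. Of all 11757 genes in that test, 4.96% were called. The change of Mme was higher in proximal cells by 1.74 ± 0.21 (SE) on the log2 scale, with an edgeR adjusted p of 1.06e-13, and kept its call in all 14 alternatives. The change of Fkbp5 was higher there by 1.18 ± 0.24 (SE; edgeR adjusted p = 9.02e-05), and was lost when te2 replicate 1 (1.38) or te2 replicate 2 (1.05) was left out. The change of Msmb was higher there by 1.11 ± 0.27 (SE; edgeR adjusted p = 0.00221), and was lost under 6 of 14 alternatives. Among them were the fits without sham replicate 1, sham replicate 2 or te2 replicate 1. The levels behind the Msmb change include the few cells rich in Msmb. Outside them Msmb was at 0, 66.9, 39.5 and 49.7 CPM by totals in proximal cells and at 4.37, 57.7, 13.6 and 18.8 CPM in luminal cells. For Tmprss2 the difference was -0.39 ± 0.30 (SE; edgeR adjusted p = 0.593), and for Hoxb13 it was 0.65 ± 0.23 (SE; edgeR adjusted p = 0.0787), so neither was shown to differ between the classes. The 2 classes come from the same 4 animals.

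For Mme and Azgp1 the share of the UMIs held by each class differed between the groups, as did the class shares of all UMIs. Of all UMIs of kept cells, luminal cells held 2972401 of 3731994 and 3827254 of 5055644 in sham. In te2 they held 3326137 of 11918498 and 4946980 of 12746075. Of all Mme UMIs of kept cells, luminal cells held 89.4% and 74.4% in sham and 18.7% and 27.9% in te2, and proximal cells held 1.4% and 5.2% against 47.4% and 30.4%. Over all kept cells the level of Mme by totals was 553 and 569 CPM in sham and 530 and 447 CPM in te2. Of the Azgp1 UMIs, luminal cells held 95.4% and 82.9% in sham and 41.9% and 49.0% in te2. Its level over all kept cells was 892 and 941 CPM in sham and 436 and 433 CPM in te2. These shares and levels weigh the classes by their number of cells and by the UMIs per cell, both of which differed between the groups.

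**Figure D3:**
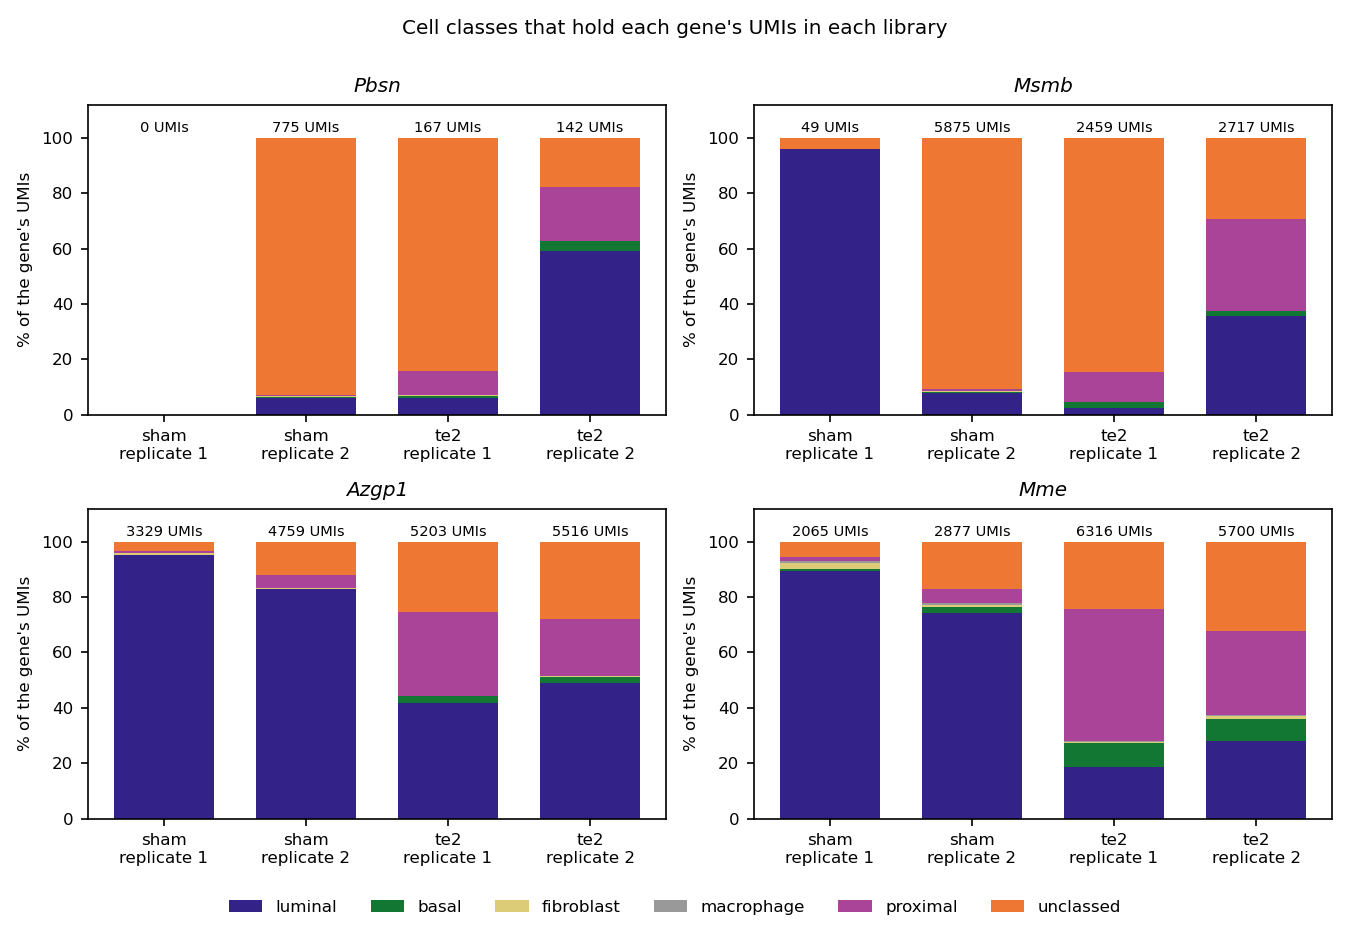
Share of the UMIs of Pbsn, Msmb, Azgp1 and Mme, in percent of all UMIs of that gene in the kept cells of a library, that came from each class and from unclassed cells; each bar is 1 library. Luminal cells held 95.4% and 82.9% of the Azgp1 UMIs in sham and 41.9% and 49.0% in te2, while most Msmb UMIs of sham replicate 2 and te2 replicate 1 lay in unclassed cells.

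In basal cells, which lie under the luminal layer and express keratins 5 and 14, 8 of the 9 genes were tested, 1 was called higher and 1 lower. Of all 9132 genes tested, 4.94% were called higher and 2.79% lower, 7.73% in all. Hoxb13 was at 269 and 336 CPM in sham and 761 and 630 CPM in te2, with no overlap of the groups. The log2 change was 1.14 ± 0.26 (SE; edgeR adjusted p = 0.00304), and it was lost under 5 of 15 alternatives, among them the fits without sham replicate 2 (1.46) and without te2 replicate 1 (0.96). The 8 proximal markers summed to 265 and 802 CPM in the basal cells of sham and to 2321 and 2073 CPM in those of te2. In sham replicate 1, 4 of the 8 were detected, with Krt4, Psca and Clu among those at 0, and in the other 3 libraries all 8 were. The part of this marker level in the Hoxb13 call was not tested. Msmb was called lower with 0 and 156 CPM in sham and 35.1 and 27.3 CPM in te2, a log2 change of -1.89 ± 0.46 (SE; edgeR adjusted p = 0.00528). The te2 libraries lay between the sham libraries, so the call rests on sham replicate 2, without which the value was 8.05 against a lone sham library at 0 counts.

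Msmb was also present outside the rich cells of sham replicate 2, in every class. Its level there was 147 CPM by totals in basal cells, 167 in fibroblasts, 58.1 in macrophages and 66.9 in proximal cells, with 57.7 in luminal cells. In te2 these levels were 4.78 to 49.7 CPM. Free RNA in the suspension can give UMIs in cells that do not express a gene, and its part in the basal call was not tested.

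The other basal values did not pass. Fkbp5 was at 499 and 307 CPM in sham and 545 and 457 CPM in te2 (log2 change 0.46 ± 0.26 SE, edgeR adjusted p = 0.307). Mme was at 288 and 359 CPM in sham and 363 and 278 CPM in te2, a log2 change of -0.08 ± 0.25 (SE; edgeR adjusted p = 0.902). Steap4 was at 115 and 75.3 CPM in sham and 120 and 115 CPM in te2, so that this metalloreductase was more abundant in basal than in luminal cells in each of the 4 libraries. Mboat2 rested on 2 sham and 143 te2 counts, whose ratio by totals was 5.02 with an exact 95% interval of 1.36 to 41.9 and an edgeR adjusted p of 0.0776. For Azgp1, with 0 and 63.7 CPM against 77.6 and 74.1 CPM, and for Tmprss2, with 0 and 29.0 CPM against 62.8 and 32.2 CPM, sham replicate 1 had no counts among its 45286 basal UMIs.

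Between basal and luminal cells the change of 3 genes differed, in a test that called 1.52% of 11935 genes. The change in basal cells was higher for Azgp1 by 1.60 ± 0.46 (SE; edgeR adjusted p = 0.0409) and lower for Msmb, at -1.82 ± 0.41 (SE; edgeR adjusted p = 0.00169). For Steap4 the difference was -2.88 ± 0.67 (SE; edgeR adjusted p = 0.00307), while its basal level was 75.3 to 120 CPM over the 4 libraries. The Steap4 value rests on 4 and 3 luminal counts and on 6 and 13 basal counts in sham. DESeq2, thinned sums and leaving out sham replicate 1 or te2 replicate 2 left 0 of the 3 calls. Azgp1 lost its call under 9 of 14 alternatives, among them the fit without te2 replicate 1. Steap4 lost its call under 7 of 14, among them the fit without sham replicate 2. The Msmb difference turned to 6.16 without sham replicate 2, to 0.95 without te2 replicate 2 and to 0.37 with halved class minimums.

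In fibroblasts and macrophages no member was called with edgeR. Of 4450 genes tested in fibroblasts 2.07% were called, 0.764% higher and 1.30% lower. Of 2173 in macrophages 2.53% were called, 1.29% higher and 1.24% lower, and the unadjusted p was under 0.05 for 784 and 467 genes. DESeq2 also called none of the 9 in either class. In fibroblasts 4 were tested, and Fkbp5 was at 306 and 252 CPM in sham and 500 and 473 CPM in te2. The groups did not overlap, with a log2 change of 0.77 ± 0.23 (SE; edgeR adjusted p = 0.11). Steap4 was at 35.7 and 60.6 CPM in sham and 64.8 and 170 CPM in te2 (log2 change 1.52 ± 0.51 SE, edgeR adjusted p = 0.139), and te2 replicate 2 was the highest library. It passed when sham replicate 2 (1.82) or te2 replicate 1 (1.997) was left out. Mme was at 187, 202, 111 and 181 CPM and Hoxb13 at 51.6, 121, 69.5 and 70.8 CPM, with edgeR adjusted p-values of 0.577 and 0.965. In macrophages Mme alone was tested, at 178 and 325 CPM in sham and 126 and 92.1 CPM in te2 (log2 change -1.13 ± 0.42 SE, edgeR adjusted p = 0.145). Pbsn, Mboat2 and Steap4 had 0 counts in the macrophages of every library.

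Sbp and Spink1, the products that define luminal cells, were also seen in the other classes, and more so in sham. They made up 2.83% to 4.43% of the UMIs of basal cells, fibroblasts and macrophages in sham and 0.183% to 0.624% in te2. A carried level was computed for each gene as the level it would have if it reached these cells in the same ratio to Sbp and Spink1 as in luminal cells of the library. For Azgp1 the measured level was below the carried level in basal cells, fibroblasts and macrophages of both sham libraries. In basal cells it was 0 and 60.0 CPM by totals against carried levels of 119 and 120 CPM. In te2 basal cells it was 74.3 and 71.5 CPM against 6.2 and 10.3 CPM. For Hoxb13 in basal cells all 4 libraries were above it, with 309, 317, 728 and 608 CPM measured and 66.2, 77.8, 9.6 and 18.9 CPM carried. The fixed ratio is an assumption, and for Azgp1 in sham it gave more than was measured. The part of carried RNA in these levels was not tested.

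**Figure D4:**
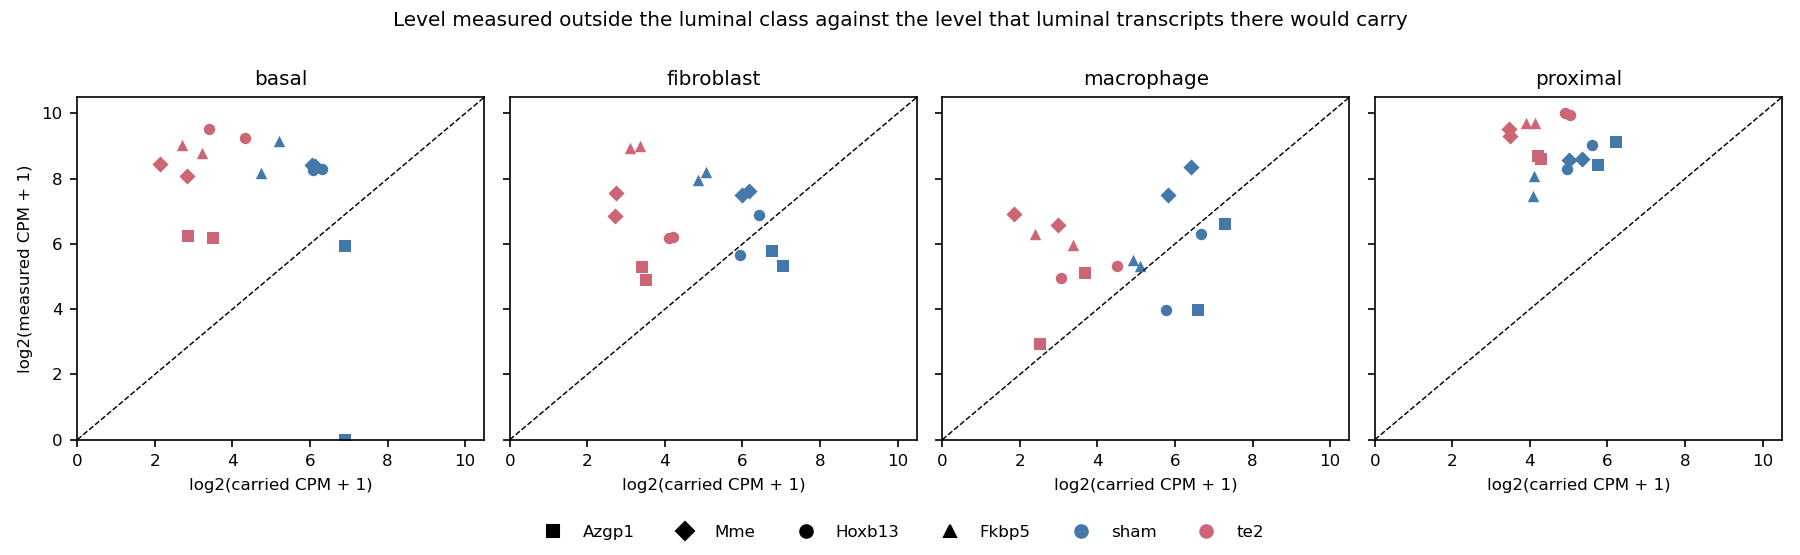
Measured level of Azgp1, Mme, Hoxb13 and Fkbp5 in basal cells, fibroblasts, macrophages and proximal cells (vertical axis, log2(CPM + 1) by class totals) against the level expected if luminal RNA were carried over in proportion to Sbp and Spink1 (horizontal axis, log2(CPM + 1)); each point is 1 gene in 1 library and the line marks equality. Sham points of Azgp1 lie below the line in basal cells, fibroblasts and macrophages, and basal Hoxb13 points lie above it.

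The genes also differed in where they were expressed within a group. In te2, the order of mean Fkbp5 by totals was proximal 827 ± 1.5 CPM (SD, n = 2) and unclassed 722 ± 25.4. Then came luminal 510 ± 105, fibroblast 501 ± 21.3 and basal 482 ± 57.2, which do not differ beyond their spread. Macrophages were lowest, at 69.5 ± 11.0. In sham the order was basal 432 ± 201, unclassed 285 ± 22.8 and luminal 273 ± 72.8 CPM. Fibroblasts at 271 ± 35.9 and proximal cells at 223 ± 67.8 followed. The ranges of these classes overlap from one neighbour to the next, and macrophages were at 41.6 ± 4.1. Tmprss2 in te2 was 163 ± 24.4 CPM in proximal, 119 ± 5.1 in unclassed and 71.6 ± 2.6 in luminal cells. It was 45.6 ± 20.5 in basal and 21.3 ± 23.4 in fibroblast cells. Azgp1 in sham was 1049 ± 26.8 CPM in luminal, 757 ± 555 in unclassed and 450 ± 159 in proximal cells, and at most 96.8 in any library of the other classes.

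Of the other androgen-responsive genes, 18 of a list of 24 were tested in luminal cells, 4 were called higher and 3 lower, beside 18.0% and 14.0% of all genes there. Their median log2 change was -0.03 against -0.01 for all genes. Acsl3, an acyl-CoA synthetase, rose by 1.08 ± 0.21 (SE) and Tsc22d1, a leucine zipper factor, by 0.72 ± 0.15, while Ell2, an elongation factor, fell to a log2 change of -0.82 ± 0.14 and Maf, a transcription factor, to -1.57 ± 0.28. In proximal cells 18 were tested, 2 were higher and 0 lower, beside 5.54% and 4.78% of all genes. In basal cells 1 of 15 was higher (Tsc22d1) and 1 lower (Maf), beside 4.94% and 2.79% of all genes. In fibroblasts and macrophages 0 of 8 and 0 of 3 were called.

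Genes that respond to the glucocorticoid receptor, several of them shared with the androgen receptor, moved both ways in luminal cells, where 4 of 11 were higher and 3 lower, beside 18.0% and 14.0% of all genes (median log2 change -0.36). Sgk1, a serum-induced kinase, rose by 1.37 ± 0.17 (SE) and Nfkbia, an inhibitor of NF-kappa-B, by 1.05 ± 0.18. Mt2, a metallothionein, stood at -1.53 ± 0.14 and Ddit4, an inhibitor of mTOR signalling, at -1.33 ± 0.19. In proximal cells 4 of 11 were higher and 0 lower, beside 5.54% and 4.78% of all genes (median 0.46). These were Sgk1 at 0.91 ± 0.23, Tsc22d3 at 1.43 ± 0.38, Zbtb16 at 1.64 ± 0.52 and Mt2 at 0.90 ± 0.24. In basal cells 2 of 9 were higher (Sgk1 and Nfkbia), beside 4.94% of all genes. In fibroblasts 1 of 9 was higher (Cebpd, 1.84 ± 0.27), beside 0.764% of all genes, and in macrophages 0 of 2.

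Of a list of chaperones, coregulators and other factors of nuclear receptor action, 14 of 16 were tested in luminal cells, with 3 higher and 2 lower. That is near the background of 32.0% of all luminal genes called in either direction. The chaperones Hspa8 (0.93 ± 0.17), Hsp90ab1 (0.68 ± 0.14) and Hsp90aa1 (0.44 ± 0.13) rose, and the corepressor Ncor1 was at -0.36 ± 0.12 and lost its call under 9 alternatives. In proximal cells 2 of 14 were higher and 1 lower, beside 5.54% and 4.78% of all genes. In basal cells 2 of 14 were higher, beside 4.94% of all genes. In fibroblasts and macrophages 0 of 12 and 0 of 7 were called.

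Family relatives of the 9 genes were higher in luminal cells for 7 of 15 tested and lower for 0, where 18.0% of all genes were called higher. Lcn2 and Ece1 are among the 7 and passed the filter on low counts through their te2 libraries alone, so their calls are not independent of the filter. Lcn2, a lipocalin like Pbsn, had 2.43 and 1.05 CPM in sham and 29.5 and 54.7 CPM in te2 (4.67 ± 0.41 SE). The membrane protease Tmprss4 rose from a mean of 8.91 ± 2.29 to 36.3 ± 2.65 CPM (SD, n = 2). On the log2 scale Steap1, a relative of Steap4, rose by 1.97 ± 0.26 (SE) and the endopeptidase Ece1, a relative of Mme, by 1.72 ± 0.41. In proximal cells Lcn2 and Tmprss4 were also higher (4.16 ± 0.39 and 2.79 ± 0.44 SE) and Hoxa13 was lower (-1.34 ± 0.33 SE). These were 3 of 16 tested, beside 10.3% of all genes called there. None of 14 was called in basal cells, 5 in fibroblasts or 1 in macrophages. Of the enzymes that make or break down androgens, 3 of 7 were higher in luminal cells, beside 18.0% of all genes. They were the dehydrogenases Hsd17b10 (0.80 ± 0.13 SE), Hsd17b12 (0.69 ± 0.16 SE) and Hsd17b4, the last from a mean of 19.3 ± 4.18 to 38.3 ± 2.24 CPM (SD, n = 2). In basal cells 1 of 6 was higher, Hsd17b10, beside 4.94% of all genes. In proximal cells, fibroblasts and macrophages 0 of 5, 0 of 5 and 0 of 3 were called. Of the list genes named here as called in proximal cells, all but Lcn2 lost the call when at least 1 of the 4 libraries was left out, and so did those in basal cells apart from Maf, Cebpd in fibroblasts, and Ncor1 and Hsp90aa1 in luminal cells. These lists were drawn up with earlier results of the same data known.

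The genes whose pattern was most like that of each member were found by Pearson's r of log2(CPM + 1) over the 20 sums of 5 classes and 4 libraries, among 9589 genes. The sums of a library share its animal and depth, and r is given as a description. Hoxb13 was most like Krt18, a keratin of simple epithelia (r = 0.96), Azgp1 like Mlph (0.94), Fkbp5 like Ptpn13 (0.94) and Tmprss2 like Slc35g1 (0.93). Steap4 was most like Ces2g (0.96), Mme like Lratd1 (0.91), Mboat2 like Plekhs1 (0.91) and Msmb like Tbc1d1 (0.83). Pbsn had too few counts over these sums. Among the members themselves Hoxb13 and Mme had the highest r (0.83) and Azgp1 and Steap4 the lowest (-0.24).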

How the data were processed

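Libraries were made from 7000 loaded cells per animal with a droplet kit that counts 3′ ends by UMI, per the labels' protocols. In the deposited files each value is a raw count of UMIs for a gene in a cell, made by the authors, and the submitters' processing notes name kallisto 0.46.1, bustools 0.39.4, R 4.3.2, Seurat 5.0.1 and GRCm39 without their roles. The annotation is not given in the sources used here. Every gene listed by a table occurs in 3 or more of its cells, and a gene it does not list was entered as 0. The reference given is of an earlier build, so it served for promoter sequences and not for the counts.

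Counts were added up over the cells of a class in each library (Python 3.11.15, scanpy 1.11.5) and tested in R 4.3.3 with edgeR 4.0.16 (TMM, the default filter with 10 counts, glmQLFTest, two-sided). CPM is the count over the class total times its TMM factor; "by totals" leaves that factor out. The SE is the log2 change over the square root of F. Alternatives were DESeq2 1.42.0, library totals, no filter, each library left out, a replicate block, at least 1000 UMIs per cell, sums thinned to equal totals, doublets left out, class minimums doubled or halved, and Sbp and Spink1 left out. Cells with at least 2000 UMIs were added after the data were seen. Scrublet called 97 cells (1.20%) as doublets, which stayed in the main result. The code was tested on simulated data. The smallest p of an exact permutation test of 2 against 2 libraries is 0.333, and edgeR goes lower by pooling the spread over genes. Groups that do not overlap reach only that p, and the share of all genes without overlap is not given here. Intervals cover counting error only. Named with values are the 9 members, and from each other list up to 4 genes of smallest p per class, some of which are not reported here. Members and lists were chosen with earlier results of these data known. The same-numbered libraries shared only a number: the correlation of their deviations was between -0.05 and 0.02 in every class.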

Additional observations from a re-analysis of the deposited data

Results flagged for a closer look

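In 6 cases the te2 effect on a gene differed between classes of the same animals in an edgeR test of the difference itself, with the library as a block and 2 libraries per group. Against luminal cells, the log2 change in proximal cells was higher by 1.18 for Fkbp5, by 1.11 for Msmb and by 1.74 for Mme. Against luminal cells, the change in basal cells was higher by 1.60 for Azgp1, and the difference was -1.82 for Msmb and -2.88 for Steap4. The Steap4 value rests on 4 and 3 luminal counts in the sham libraries. The tests called 4.96% of all genes for proximal cells and 1.52% for basal cells. Mme alone kept its call in all 14 alternatives. With DESeq2 and with thinned sums 0 of the 3 basal calls were left. The basal difference of Msmb turned to 6.16 without sham replicate 2. Depth per cell and the number of cells per class differed between the groups as well, and their part in these differences was not tested.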

How the results depend on the processing

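In luminal cells 7 members passed in the main analysis and 6 to 9 in the 15 alternatives, and Tmprss2, Azgp1, Hoxb13, Mme, Mboat2 and Steap4 were called in each of them. Fkbp5 in luminal cells was lost with DESeq2. In proximal cells Fkbp5 was called in each of the 15. For the other changes below the cause was not tested.

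Counts of genes past an adjusted p of 0.05 were 3515 in luminal, 706 in basal, 92 in fibroblast, 55 in macrophage and 1039 in proximal cells. DESeq2 gave 1661, 221, 79, 33 and 251, and called 1 member in basal cells, 3 in proximal cells and 0 in the basal and luminal difference. With at least 1000 UMIs per cell fibroblasts had 55 and macrophages 15. With at least 2000 UMIs, an alternative chosen after seeing the data, basal cells had 54 with 0 members, fibroblasts 33 and macrophages 0, and the basal and luminal difference had 0 members. Doubled class minimums gave 407 in basal, 117 in macrophage and 583 in proximal cells. Halved minimums gave 86, doublets left out 100 and library totals 83 in macrophages. Without the filter fibroblasts had 249 genes and 2 members, macrophages 183, and the proximal and luminal difference 5 members. Sums thinned to equal totals left 2 genes and 0 members in basal, 22 genes in macrophage, 163 genes and 2 members in proximal cells, and 0 members in the basal and luminal difference. The sham totals are small, and thinning leaves fewer genes to test: 826 in basal and 1463 in proximal cells.

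The replicate block gave 456 genes in basal, 19 in macrophage and 614 in proximal cells. The pairing by number has no support in the labels or in the correlations, and the block called 8 members in luminal and 5 in proximal cells.

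With each library left out in turn, the counts of genes ran from 148 to 369 in basal, 5 to 211 in fibroblast, 56 to 149 in macrophage and 233 to 817 in proximal cells. Counts of members ran from 0 to 2 in basal, 0 to 1 in fibroblast and 2 to 4 in proximal cells, from 1 to 4 in the proximal and luminal difference and from 0 to 2 in the basal and luminal difference. The lowest fibroblast count came without te2 replicate 2 and the lowest basal count without sham replicate 2. The library left out turned the sign of several log2 changes, whose ranges were -1.14 to 8.33 for Pbsn and -2.07 to 2.75 for Msmb in luminal cells, and -0.31 to 0.24 for Mme and -2.29 to 8.05 for Msmb in basal cells. They were -0.76 to 0.46 for Hoxb13 in fibroblasts, and -0.50 to 0.54 for Azgp1 and -0.45 to 11.8 for Msmb in proximal cells. In the proximal and luminal difference they were -1.07 to 1.49 for Pbsn, -0.66 to 1.68 for Tmprss2 and -1.04 to 6.35 for Steap4, and in the basal and luminal difference -3.03 to 6.16 for Msmb and -0.75 to 8.02 for Tmprss2. The values over 5 are set against a lone sham library at or near 0 counts.

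Other alternatives turned signs of changes that were not called in the main analysis, apart from the basal and luminal difference of Msmb. Halved class minimums gave -0.43 for Pbsn and -0.43 for Msmb in luminal cells, 0.66 for Mme in basal cells and 0.12 for Hoxb13 in fibroblasts. They gave 0.34 for Steap4 in the proximal and luminal difference, and 0.0914 for Fkbp5, 0.26 for Tmprss2, 0.37 for Msmb and 0.35 for Mboat2 in the basal and luminal difference. Doubled minimums gave -0.69 for Tmprss2 and -0.42 for Azgp1 in basal cells and 5.14 for Mboat2 in the basal and luminal difference. At least 2000 UMIs gave 0.57 for Mme in basal cells, 0.026 for Mme in fibroblasts, -0.15 for Pbsn in the proximal and luminal difference, and 3.36 for Pbsn and 0.032 for Tmprss2 in the basal and luminal difference. Library totals gave 0.0183 and no filter 0.0451 for Hoxb13 in fibroblasts, no filter 0.0754 for Mme in basal cells, and thinned sums 1.15 for Tmprss2 in the basal and luminal difference. Library totals moved the fibroblast split from 34 higher and 58 lower to 41 and 38.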
